A study of Mus musculus with 6 samples.

Results

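The sterol and fatty acid synthesis genes are 36 mouse genes, listed by their place in the pathway: 18 enzymes from acetyl-CoA to cholesterol, 5 regulators of the pathway, 1 sterol carrier and 12 enzymes that supply, build, elongate or desaturate fatty acids. They were listed by name, with earlier results of these data known, and all 36 were found among the 24809 genes of the deposited table. The list does not hold every enzyme of either route. Values came from RNA sequencing of C2C12, an established mouse myoblast line labelled as myoblasts, in control cells (n = 3) and in cells overexpressing the homeobox transcription factor gene Msx1 (n = 3). The control columns are named for a vector. No treatment, time point, cell density or stage of differentiation is given in the labels, nor the promoter that drives Msx1 or whether either line is 1 clone. A difference between the groups in any of these therefore cannot be told apart from the raised Msx1.

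Cholesterol is made from acetyl-CoA through mevalonate, isoprenoid diphosphates, squalene and lanosterol, and fatty acids are made from the same acetyl-CoA by carboxylation, chain building, elongation and desaturation. Most of these genes are known targets of the sterol regulatory element-binding proteins (SREBPs, encoded by Srebf1 and Srebf2). Scap escorts SREBPs from the endoplasmic reticulum to the proteases that release them, and Insig proteins hold Scap back when sterols are plentiful. Dividing myoblasts draw on both routes for membrane lipids.

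Levels are FPKM (fragments scaled to transcript length and sequencing depth) summed over the transcripts of a gene, and can be compared between genes because they are per length. Changes are differences of log2(FPKM + 1), Msx1 overexpression minus control, with the standard error (SE) and adjusted p of limma over all genes tested. That scale understates the change of low genes. A gene is called higher or lower at an adjusted p under 0.05. The labels do not say whether replicates were separate cultures, so p measures the spread between these libraries, which may be technical. In bulk RNA, fewer cells of a type and less RNA per cell cannot be told apart.

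Msx1 stood at 7.13 to 7.99 FPKM in the control and at 912 to 1004 FPKM in the Msx1 libraries. Total FPKM was 409664 to 441835 in control and 390439 to 401802 in Msx1 libraries, and log2 values correlated at 0.9899 or above across genes within groups. A rough search for the value of 1 fragment gave 21.3 to 23.8 M fragments for 5 libraries and 37.05 M for control replicate 2, without recovering whole reads. Of 12371 genes tested, 32.4% were called lower and 22.0% higher, and 62.3% had no overlap between the groups. The higher share of all calls was 40.4% on FPKM as deposited, 51.3% when scaled by medians of ratios and 55.5% when totals were equalized leaving Msx1 out. These scalings moved the median of all genes from -0.07 to 0.00 and 0.03.

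All 36 members passed the minimum for testing, a mean of 0.5 FPKM over the 6 libraries. Of these, 23 fell (63.9%, against 32.4% of all genes), 4 rose (11.1%, against 22.0%) and 9 were not called. The groups did not overlap for 28 of 36 members (77.8%, against 62.3%). The median change of the members was -0.50, against -0.07 over all genes tested. Of the members, 7 fell by at least 1 on the log2 scale: Scd1, Fdps, Hmgcs1, Idi1, Stard4, Nsdhl and Mvd. The 4 that rose were Ebp, Srebf1, Dhcr7 and Sqle. The call and direction of 24 of the 27 called members held in all 17 alternative settings. The exceptions were Sqle, Insig2 and Elovl1.

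**Figure D1:**
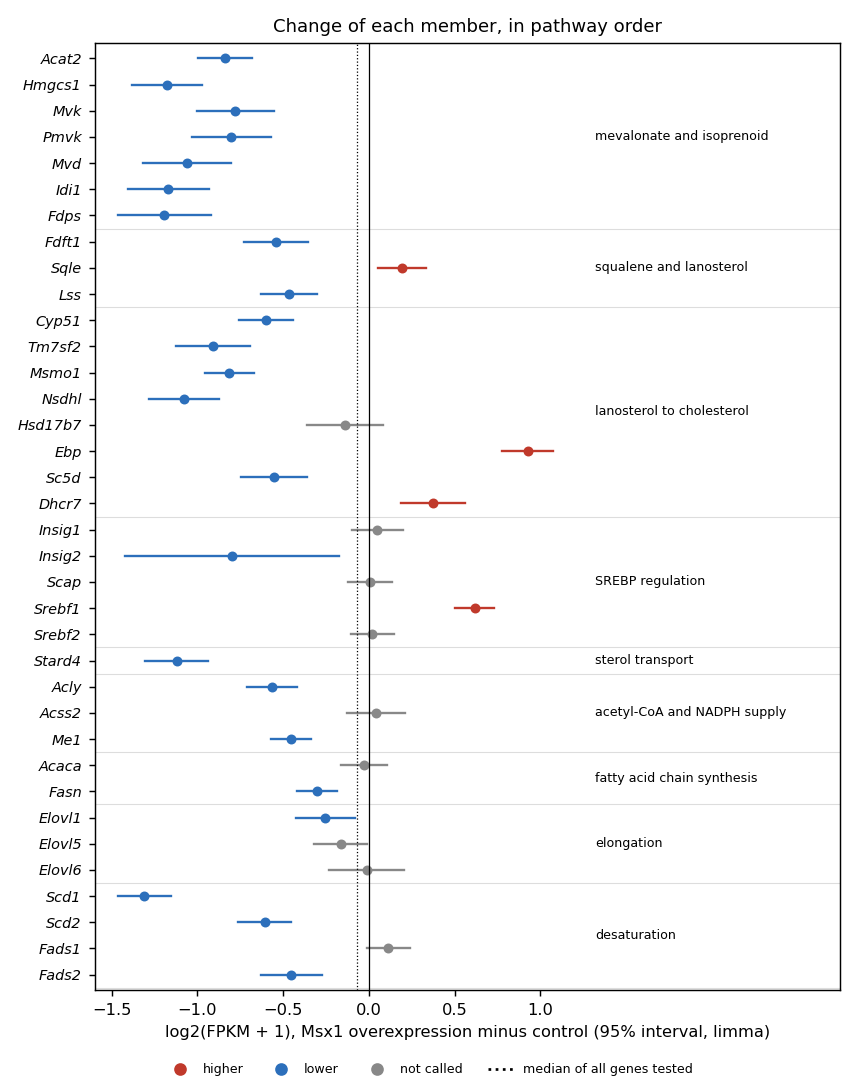
Change of each of the 36 members in pathway order, as log2(FPKM + 1) in Msx1 overexpression minus control (n = 3 each), with 95% intervals from limma. Blue marks members called lower, red higher and grey not called, and the dotted line is the median of all genes tested. The 7 mevalonate and isoprenoid genes all lie left of -0.7, while Ebp stands alone near 0.93.

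In control cells the levels spanned a wide range. The stearoyl-CoA desaturase gene Scd2 was highest at 314 ± 23.9 FPKM (SD, n = 3). Fdps at 125 ± 21.9 FPKM and Scd1 at 125 ± 10.4 FPKM followed and did not differ beyond their spread. Srebf2 at 74.0 ± 3.29 and Hmgcs1 at 69.4 ± 9.23 FPKM came next, with overlapping ranges over the control libraries. Hsd17b7 was lowest at 6.03 ± 0.582 FPKM. Summed over the 18 sterol enzymes, the level was 643, 563 and 674 FPKM in control replicates 1, 2 and 3 and 414, 393 and 412 FPKM in Msx1 replicates 1, 2 and 3. Summed over the 12 fatty acid enzymes it was 786, 786 and 878 FPKM in control and 575, 557 and 567 FPKM in Msx1 libraries. Both sums were lower in every Msx1 library than in any control library. Scd2 and Scd1 held much of the fatty acid sum. Scd2 averaged 314 FPKM in control and 205 FPKM in Msx1 libraries, and Scd1 125 and 49.8 FPKM. Of the 12 fatty acid enzymes, 5 were not called. Within the control group, replicate 3 held the highest value for 24 of 36 members and replicate 2 the lowest for 25. The same count over all genes was not made. Total FPKM in control replicates 1, 2 and 3 was 441835, 409664 and 426319.

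**Figure D2:**
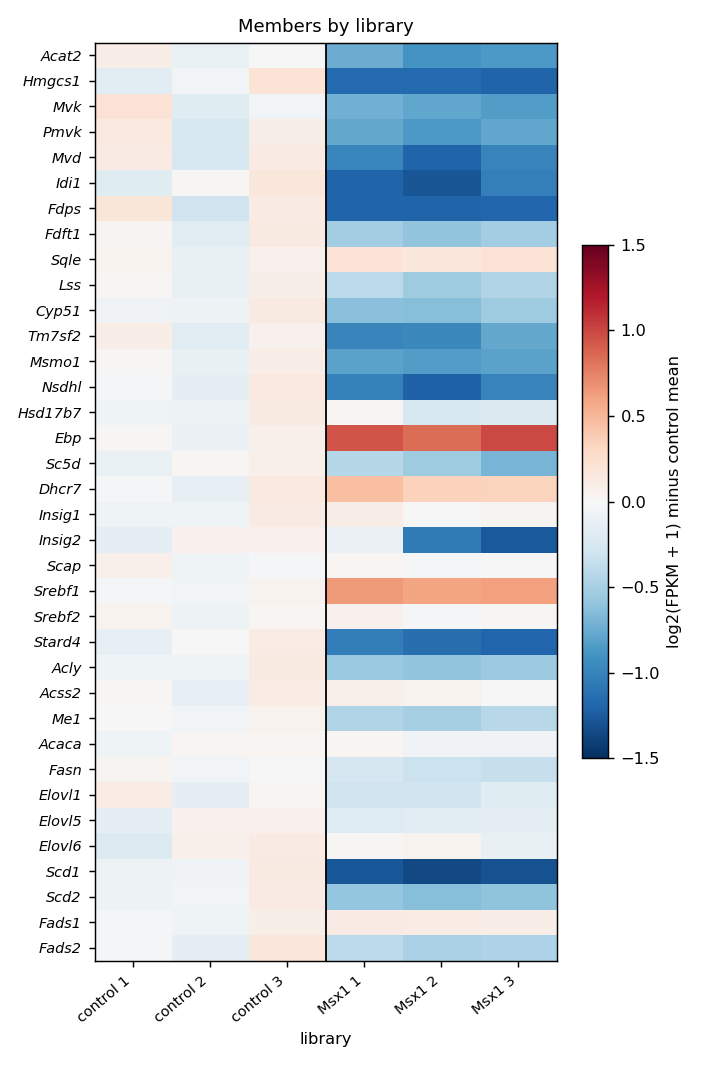
Each member in each library, as log2(FPKM + 1) minus the mean of the control libraries; blue is below and red above that mean. The 3 Msx1 columns share the same pattern for most members, and Insig2 in Msx1 replicate 1 stays close to control while replicates 2 and 3 are far below.

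The enzymes from acetyl-CoA to farnesyl diphosphate all fell: 7 of 7 were called lower (100%, against 32.4% of all genes). Their median change was -1.06, and the groups overlapped for none of them. Over all genes tested, 62.3% had no overlap. Acat2, the cytosolic thiolase that joins acetyl-CoA units, read 43.0, 37.4 and 40.4 FPKM in control and 23.6, 21.1 and 21.6 FPKM in Msx1 replicates 1, 2 and 3 (log2 change -0.84, SE 0.07, adjusted p = 2.73e-05). Its close copy Acat3, whose reads may be shared with it, was at 6.34 ± 1.36 and 6.10 ± 0.304 FPKM and was not called (adjusted p = 0.86). Hmgcs1, the cytosolic synthase that makes HMG-CoA, read 61.4, 67.2 and 79.5 FPKM in control and 30.1, 30.3 and 29.4 FPKM in Msx1 libraries. The Msx1 libraries lay within 1 FPKM of each other, and the lowest control library was above all of them. The change of Hmgcs1 was -1.18 (SE 0.09, adjusted p = 1.74e-05), and both of its transcripts were lower in every Msx1 library.

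The 3 enzymes that phosphorylate and decarboxylate mevalonate were among them. The kinase gene Mvk went from 25.8 ± 3.73 to 14.5 ± 0.624 FPKM, to 56.3% of control, and the phosphomevalonate kinase gene Pmvk from 28.6 ± 4.09 to 15.9 ± 0.562 FPKM (n = 3 each; adjusted p = 2.88e-04 and 2.81e-04). The decarboxylase gene Mvd went from 18.4, 14.2 and 18.4 FPKM in control to 8.04, 6.76 and 7.92 FPKM in Msx1 libraries, a log2 change of -1.06 (SE 0.11, adjusted p = 1.08e-04). For all 3 genes control replicate 2 was the lowest control library, still above the Msx1 libraries. Idi1, which isomerizes isopentenyl diphosphate, read 21.7, 24.9 and 27.8 FPKM in control and 10.1, 9.51 and 11.6 FPKM in Msx1 libraries (log2 change -1.17, SE 0.10, adjusted p = 3.87e-05). Fdps, the farnesyl diphosphate synthase, read 141, 100.3 and 135 FPKM in control and 53.6, 53.5 and 53.9 FPKM in Msx1 libraries. The control libraries of Fdps were uneven and the Msx1 libraries almost equal, and the change was -1.19 (SE 0.12, adjusted p = 8.17e-05). Its most abundant transcript alone stood at 117, 65.2 and 116 FPKM in control and at 44.8, 51.7 and 45.0 FPKM in Msx1 libraries. Mvd and Fdps overlap predicted genes in the annotation, and reads of overlapping genes may be divided between them.

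At the squalene branch the 3 genes did not move together. Fdft1, squalene synthase, read 34.1, 29.3 and 36.6 FPKM in control and 22.8, 21.7 and 22.9 FPKM in Msx1 libraries (log2 change -0.54, SE 0.08, adjusted p = 7.79e-04). It overlaps the cathepsin gene Ctsb by 774 bases on the opposite strand, and Ctsb averaged 201 FPKM in controls against 470.4 FPKM under Msx1. The part of that overlap in the value of Fdft1 was not tested. Sqle, the epoxidase that follows and a known control point of the pathway, read 55.3, 49.2 and 55.7 FPKM in control and 61.7, 59.5 and 62.2 FPKM in Msx1 libraries. Every Msx1 library of Sqle was above every control library, with a log2 change of 0.19 (SE 0.06, adjusted p = 0.0278). That call was lost without control replicate 2 (adjusted p = 0.0556) and without Msx1 replicate 1 (0.0871), 2 (0.0552) or 3 (0.0849), in a range of 0.00127 to 0.0871 over 17 settings. Lss, which closes squalene epoxide to lanosterol, fell to 69.7% of control, 10.3 ± 0.753 against 7.18 ± 0.344 FPKM (n = 3 each), with a log2 change of -0.46 (adjusted p = 8.35e-04).

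Of the 8 enzymes from lanosterol to cholesterol, 5 fell, 2 rose and 1 was not called. That is 62.5% lower and 25% higher, against 32.4% and 22.0% of all genes. The first steps were lower. Cyp51, the lanosterol demethylase, fell by 0.60 on the log2 scale (adjusted p = 1.69e-04), with 41.2 ± 3.36 and 26.8 ± 1.08 FPKM (SD, n = 3 each). The sterol reductase gene Tm7sf2 fell by 0.91 (adjusted p = 1.04e-04), with 9.99 ± 1.02 and 4.84 ± 0.523 FPKM. Msmo1 and Nsdhl act in turn to remove the methyl groups of the sterol ring. Msmo1 read 47.9, 43.9 and 50.9 FPKM in control and 26.9, 26.1 and 26.8 FPKM in Msx1 libraries (log2 change -0.81, SE 0.06, adjusted p = 1.83e-05). Nsdhl read 35.8, 32.7 and 40.3 FPKM in control and 17.4, 15.0 and 17.5 FPKM in Msx1 libraries (log2 change -1.08, SE 0.09, adjusted p = 2.80e-05). Neither gene had an Msx1 library near the control range. Hsd17b7, the ketoreductase of the same demethylation complex, was at 6.03 ± 0.582 and 5.39 ± 0.676 FPKM with overlapping groups, and its change of -0.14 (95% interval -0.36 to 0.08) was not called (adjusted p = 0.248).

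The late steps went both ways. Ebp, the isomerase that shifts the ring double bond, read 29.7, 27.5 and 31.0 FPKM in control and 57.5, 53.4 and 59.3 FPKM in Msx1 libraries. It reached 193% of the control mean, with a log2 change of 0.93 (SE 0.06, adjusted p = 1.02e-05), and was the member that rose most. Sc5d, the desaturase that acts next, read 17.4, 19.1 and 19.8 FPKM in control and 13.7, 12.6 and 11.2 FPKM in Msx1 libraries (log2 change -0.55, SE 0.08, adjusted p = 8.31e-04). Dhcr7, which reduces 7-dehydrocholesterol to cholesterol, read 8.91, 8.30 and 10.2 FPKM in control and 12.8, 11.9 and 11.7 FPKM in Msx1 libraries (log2 change 0.37, SE 0.08, adjusted p = 0.00512). Ebp and Dhcr7 thus rose on either side of Sc5d, which fell. All 3 calls held in each of the 17 settings.

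**Figure D3:**
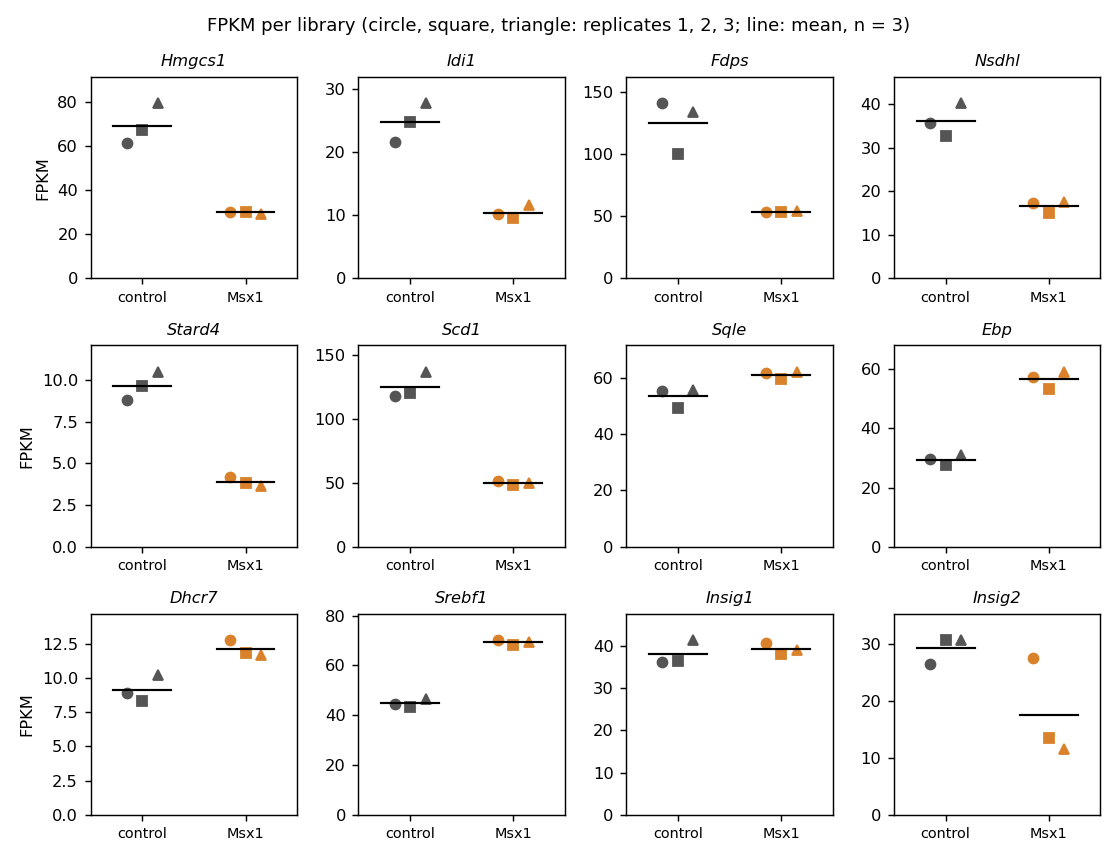
FPKM of 12 members in each library on linear axes from 0; circles, squares and triangles are replicates 1, 2 and 3, and lines are group means (n = 3). The groups are apart for the 6 genes that fell (Hmgcs1 to Scd1) and for Sqle, Ebp, Dhcr7 and Srebf1, overlap for Insig1, and split within the Msx1 group for Insig2, where replicate 1 read 27.5 FPKM.

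Among the 5 regulators, 1 rose (20%, against 22.0% of all genes), 1 fell (20%, against 32.4%) and 3 were not called. Srebf1 read 44.4, 43.5 and 46.6 FPKM in control and 70.3, 68.1 and 69.4 FPKM in Msx1 libraries, 154% of control (log2 change 0.62, SE 0.05, adjusted p = 2.22e-05). Its most abundant transcript rose from 24.6, 26.8 and 23.0 FPKM to 35.5, 34.8 and 37.7 FPKM, and the next from 14.7, 13.7 and 18.9 FPKM to 28.1, 25.6 and 25.6 FPKM. Both transcripts were higher in every Msx1 library, although estimation divides reads between them. Srebf2, which encodes the SREBP known best for driving the sterol enzymes, was at 74.0 ± 3.29 and 75.1 ± 2.20 FPKM (log2 change 0.02, 95% interval -0.10 to 0.14, adjusted p = 0.767). Scap was at 22.3 ± 1.21 and 22.4 ± 0.366 FPKM (log2 change 0.01, 95% interval -0.12 to 0.13, adjusted p = 0.923). The groups overlapped for both. When totals were equalized leaving Msx1 out, Srebf2 passed as higher (log2 change 0.13, adjusted p = 0.0422).

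Insig1, itself a known SREBP target, read 36.2, 36.3 and 41.4 FPKM in control and 40.7, 38.0 and 39.0 FPKM in Msx1 libraries, and was not called (log2 change 0.05, 95% interval -0.10 to 0.20, adjusted p = 0.549). Insig2 read 26.4, 30.6 and 30.7 FPKM in control and 27.5, 13.5 and 11.6 FPKM in Msx1 replicates 1, 2 and 3. Msx1 replicate 1 lay inside the control range and the other Msx1 libraries far below it. The change was -0.80 (SE 0.27, adjusted p = 0.036), and -1.16 (adjusted p = 1.24e-04) without Msx1 replicate 1. The call was lost in 10 of 17 settings, among them the removal of any other library and every rescaling, in a range of 1.24e-04 to 0.11. The same split was in its main transcript, at 26.5, 12.6 and 10.2 FPKM. Stard4, a carrier that moves cholesterol between membranes and a known sterol-regulated gene, read 8.81, 9.65 and 10.5 FPKM in control and 4.19, 3.84 and 3.66 FPKM in Msx1 libraries, 40.3% of control (log2 change -1.12, SE 0.08, adjusted p = 1.24e-05).

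Of the 12 fatty acid enzymes 7 fell (58.3%, against 32.4% of all genes), 0 rose (against 22.0%) and 5 were not called, with a median change of -0.28. Without adjustment, the p of limma was under 0.05 for 8 of the 12, all lower. Acly, which makes cytosolic acetyl-CoA from citrate, read 58.9, 58.7 and 67.4 FPKM in control and 41.6, 40.4 and 41.8 FPKM in Msx1 libraries (log2 change -0.57, SE 0.06, adjusted p = 1.72e-04). Acss2, which makes acetyl-CoA from acetate, was at 9.41 ± 0.846 and 9.70 ± 0.333 FPKM and was not called (95% interval -0.13 to 0.21, adjusted p = 0.653). Me1, the malic enzyme that supplies NADPH, fell by 0.45 on the log2 scale (adjusted p = 1.51e-04), with 48.8 ± 1.74 and 35.3 ± 0.947 FPKM. Fasn, fatty acid synthase, read 42.8, 40.3 and 41.8 FPKM in control and 34.9, 33.2 and 32.7 FPKM in Msx1 libraries, a smaller fall of 0.30 on the log2 scale (SE 0.05, adjusted p = 0.00149). Acaca, the carboxylase that commits acetyl-CoA to fatty acids, was at 11.2 ± 0.445 and 11.0 ± 0.407 FPKM (95% interval -0.16 to 0.11, adjusted p = 0.722), with overlapping groups.

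The elongases moved little. Elovl1, which extends very long chains, read 46.0, 38.3 and 43.5 FPKM in control and 34.5, 34.6 and 37.4 FPKM in Msx1 libraries (log2 change -0.25, SE 0.07, adjusted p = 0.021). The call was lost in 6 of 17 settings, among them the most abundant transcript alone (adjusted p = 0.172) and the removal of control replicate 3 (0.069), Msx1 replicate 1 (0.0739) or Msx1 replicate 2 (0.0703), in a range of 4.14e-04 to 0.172. Elovl1 overlaps the mitotic gene Cdc20 by 53 bases on the opposite strand, and Cdc20 averaged 55.7 FPKM in controls against 18.9 FPKM under Msx1. The part of that overlap in the value of Elovl1 was not tested. Elovl5, an elongase of polyunsaturated chains, was at 43.5 ± 3.50 and 38.6 ± 0.835 FPKM and was not called (log2 change -0.17, adjusted p = 0.0639). It passed as lower without control replicate 1 (adjusted p = 0.00292), with library weights (5.51e-04) and with the replicate number as a block (0.0487), in a range of 5.51e-04 to 0.60. Elovl6, which makes stearate from palmitate, was at 14.6 ± 1.86 and 14.4 ± 0.867 FPKM (95% interval -0.23 to 0.20, adjusted p = 0.912).

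The desaturases held both the highest level and the largest fall. Scd1 read 118, 120.4 and 137 FPKM in control and 51.2, 48.4 and 49.8 FPKM in Msx1 libraries, 39.8% of control (log2 change -1.31, SE 0.07, adjusted p = 2.12e-06). Scd2 read 297, 304 and 341 FPKM in control and 209, 201 and 206 FPKM in Msx1 libraries, 65.4% of control (log2 change -0.61, SE 0.07, adjusted p = 1.50e-04). Both genes make monounsaturated fatty acids, and no Msx1 library of either reached the control range. The other members of the family, Scd3 and Scd4, averaged 0.259 and 0.175 FPKM in controls against 0.138 and 0.514 FPKM under Msx1, below the minimum for testing. Fads2 and Fads1 put in the double bonds of polyunsaturated fatty acids. Fads2 read 57.5, 52.5 and 64.8 FPKM in control and 43.7, 41.1 and 41.8 FPKM in Msx1 libraries (log2 change -0.45, SE 0.08, adjusted p = 0.00171). Fads1 read 45.1, 43.8 and 48.9 FPKM in control and 50.2, 49.8 and 49.3 FPKM in Msx1 libraries, without overlap and not called (log2 change 0.11, 95% interval -0.01 to 0.24, adjusted p = 0.113). It passed as higher under each of 3 rescalings (log2 change 0.15 to 0.22, adjusted p = 0.0107 to 0.0452).

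The Fads genes lie in 1 region of chromosome 19 in GRCm38, Fads3 at 10040855 to 10060113, Fads2 at 10062765 to 10101503 and Fads1 at 10182877 to 10196874. Fads3, whose product is a related desaturase and which is not a member, rose by 0.29 on the log2 scale (adjusted p = 0.00263), with 46.5 ± 2.54 and 57.1 ± 1.29 FPKM (SD, n = 3 each). Fads3 and Fads2 are 2.65 kb apart, with opposite calls, and Fads2 and Fads1 are 81.4 kb apart.

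Related genes were compared by the log2 ratio of their FPKM within each library. For Scd1 over Scd2 the ratio was -1.33, -1.33 and -1.31 in control and -2.03, -2.05 and -2.05 in Msx1 libraries, a difference of -0.72. The spread within each group was small beside that difference. For Srebf1 over Srebf2 the ratio was -0.79, -0.69 and -0.69 in control and -0.14, -0.10 and -0.11 in Msx1 libraries, a difference of 0.61. For Fads1 over Fads2 it changed sign, from -0.35, -0.26 and -0.41 to 0.20, 0.28 and 0.24. The groups did not overlap for these 3 pairs or for Insig1 over Insig2 (difference 0.89), and overlapped for Elovl5 over Elovl6 (difference -0.16). A permutation test, exact and two-sided, returned p = 0.1 for each of the first 4 pairs and 0.2 for the last (adjusted over the 5 pairs, 0.125 and 0.2), and 0.1 is the smallest p that 3 against 3 libraries allow.

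**Figure D4:**
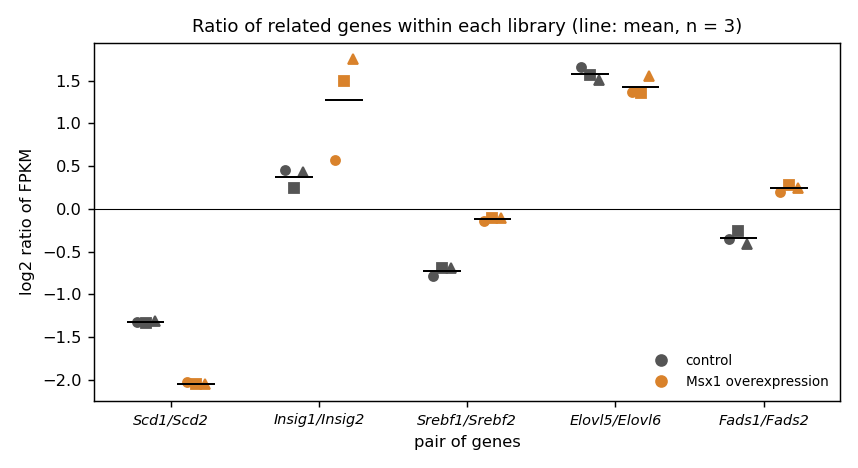
Log2 ratio of FPKM of 5 pairs of related genes in each library, control in grey and Msx1 overexpression in orange; symbols are replicates 1, 2 and 3 (circle, square, triangle) and lines are means (n = 3). Scd1/Scd2 drops from about -1.32 to -2.04, Fads1/Fads2 crosses 0, and Insig1/Insig2 spreads widely within the Msx1 group.

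Promoter sequences are shown for 6 members, the 4 with the smallest adjusted p among those called lower and the 2 among those called higher, taken from the 29 members that had an entry. They run 5′ to 3′ from 250 bases before to 50 bases after a start of the gene, from RefSeq in build GRCm38.p6. Capitals mark 5 motifs searched on both strands: CCAAT, the core of the NF-Y site; TCACNCCAC, a form of the sterol regulatory element; GGGCGG, the core of the Sp1 site; CACGTG, an E-box that SREBPs can also bind; and TAATTG, a homeobox motif of the kind Msx1 binds. Each also counts where it overlaps another. The windows are chr13:119690101-119690400 on the plus strand for Hmgcs1, chr8:64733529-64733828 on the minus strand for Msmo1, chr17:12960676-12960975 on the minus strand for Acat2, chrX:72918271-72918570 on the plus strand for Nsdhl, chrX:8193463-8193762 on the minus strand for Ebp and chr11:60220578-60220877 on the minus strand for Srebf1, the entry nearest to the start of its most abundant transcript.
Hmgcs1: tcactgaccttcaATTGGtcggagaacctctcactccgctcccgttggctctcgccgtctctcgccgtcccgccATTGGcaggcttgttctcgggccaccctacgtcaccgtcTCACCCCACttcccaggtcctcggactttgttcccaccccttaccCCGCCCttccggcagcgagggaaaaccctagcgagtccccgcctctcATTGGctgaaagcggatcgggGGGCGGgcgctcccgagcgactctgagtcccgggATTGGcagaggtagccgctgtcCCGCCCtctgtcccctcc
Msmo1: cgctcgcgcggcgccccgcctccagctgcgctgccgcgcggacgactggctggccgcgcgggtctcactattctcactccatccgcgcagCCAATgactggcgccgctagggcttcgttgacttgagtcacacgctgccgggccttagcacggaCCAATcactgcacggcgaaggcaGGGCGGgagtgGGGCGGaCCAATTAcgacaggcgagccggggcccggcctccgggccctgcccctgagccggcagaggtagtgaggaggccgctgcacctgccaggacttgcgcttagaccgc
Acat2: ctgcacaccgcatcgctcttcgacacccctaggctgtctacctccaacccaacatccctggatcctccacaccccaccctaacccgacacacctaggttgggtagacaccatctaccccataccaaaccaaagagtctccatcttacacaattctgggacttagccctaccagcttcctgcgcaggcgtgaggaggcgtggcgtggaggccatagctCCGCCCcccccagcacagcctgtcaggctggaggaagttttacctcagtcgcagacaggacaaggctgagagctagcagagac
Nsdhl: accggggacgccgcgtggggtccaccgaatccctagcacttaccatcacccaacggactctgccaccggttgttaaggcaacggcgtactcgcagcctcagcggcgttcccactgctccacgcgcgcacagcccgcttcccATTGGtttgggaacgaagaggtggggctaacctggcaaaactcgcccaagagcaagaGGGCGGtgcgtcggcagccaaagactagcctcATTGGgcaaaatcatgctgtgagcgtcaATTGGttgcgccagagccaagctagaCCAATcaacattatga
Ebp: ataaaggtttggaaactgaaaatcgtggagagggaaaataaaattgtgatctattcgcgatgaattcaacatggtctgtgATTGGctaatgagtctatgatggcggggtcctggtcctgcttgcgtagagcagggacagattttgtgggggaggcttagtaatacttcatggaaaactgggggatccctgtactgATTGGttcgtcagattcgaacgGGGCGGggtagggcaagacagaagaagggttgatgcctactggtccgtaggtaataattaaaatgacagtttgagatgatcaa
Srebf1: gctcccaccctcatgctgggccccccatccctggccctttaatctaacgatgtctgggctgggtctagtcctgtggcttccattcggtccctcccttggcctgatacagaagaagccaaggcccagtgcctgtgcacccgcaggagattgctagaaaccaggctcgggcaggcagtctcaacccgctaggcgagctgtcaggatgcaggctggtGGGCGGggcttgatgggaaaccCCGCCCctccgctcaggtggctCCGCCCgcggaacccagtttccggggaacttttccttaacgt

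The Hmgcs1 window held 4 matches of CCAAT and the only match of TCACNCCAC among the 29 members, at position -137 from the start. Nsdhl also held 4 matches of CCAAT, Msmo1 3 and Ebp 2, while Acat2 and this entry of Srebf1 held none. The Msmo1 window held 1 match of TAATTG, which overlaps a CCAAT match. A CCAAT match was found for 24 of 29 members (82.8%), against 43.4% of 9732 tested genes with an entry and 41.1% of all 27025 genes with an entry. It was found for 16 of 18 members called lower, 3 of 3 called higher and 5 of 8 not called. GGGCGG was found for 24 of 29 members (82.8%), against 69.7% of tested genes and 38.2% of all, CACGTG for 6 (20.7%, against 11.8% and 8.09%), TAATTG for 2 (6.90%, against 5.53% and 9.22%) and TCACNCCAC for 1 (3.45%, against 1.35% and 1.44%). CACGTG was found for 1 of 18 members called lower, 1 of 3 called higher and 4 of 8 not called. Members called higher and members called lower both held CCAAT and GGGCGG. Genes with more than 1 entry counted as holding a motif where any entry did. No entry was used for Fdps, Fdft1, Sqle, Stard4, Scd1, Scd2 and Fads1.

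Other genes of sterol and isoprenoid metabolism held both rises and falls. Of 31 listed, 28 were tested: 11 rose (39.3%, against 22.0% of all genes), 8 fell (28.6%, against 32.4%) and 9 were not called, with a median change of -0.04. The sterol efflux pump gene Abcg1 rose from 1.17 ± 0.197 to 3.83 ± 0.0907 FPKM, and Nr1h3, encoding the sterol-sensing receptor LXR-alpha, from 1.52 ± 0.0373 to 3.75 ± 0.313 FPKM (n = 3 each). Their log2 changes were 1.16 (adjusted p = 1.31e-05) and 0.91 (adjusted p = 2.44e-05). Among those that fell, the smallest adjusted p belonged to Ch25h, which hydroxylates cholesterol (3.67 ± 0.559 to 0.207 ± 0.0172 FPKM), the sterol-regulated membrane gene Tmem97 (34.0 ± 5.60 to 19.2 ± 1.03 FPKM) and Erlin2 (log2 change -0.49). The site-1 protease gene Mbtps1, which cuts SREBPs, rose by 0.43 (adjusted p = 1.30e-04), and the site-2 protease gene Mbtps2 was not called (log2 change -0.07, adjusted p = 0.347).

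Other genes of fatty acid and glycerolipid synthesis were mostly lower: of 37 listed, 30 were tested, and 18 fell (60.0%, against 32.4% of all genes). Another 4 rose (13.3%, against 22.0%) and 8 were not called. The median change was -0.30. Hacd1, a dehydratase of the elongation cycle, fell from 22.1 ± 0.747 to 11.9 ± 0.373 FPKM. The triglyceride synthesis gene Dgat2 fell from 4.57 ± 0.294 to 1.67 ± 0.156 FPKM and Pgd, an NADPH source, from 125 ± 8.82 to 67.3 ± 2.89 FPKM (n = 3 each; adjusted p = 6.73e-06 to 1.63e-05 for the 3). Mid1ip1, which activates acetyl-CoA carboxylase, rose by 0.90 on the log2 scale (adjusted p = 2.70e-05), with 25.8 ± 2.64 and 48.7 ± 1.14 FPKM, and Fads3 and the phosphatidate phosphatase gene Lpin1 (log2 change 0.57, adjusted p = 0.0103) rose as well. Lpin1 read 15.1 FPKM in Msx1 replicate 1, above 10.3 and 9.86 FPKM in replicates 2 and 3.

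**Figure D5:**
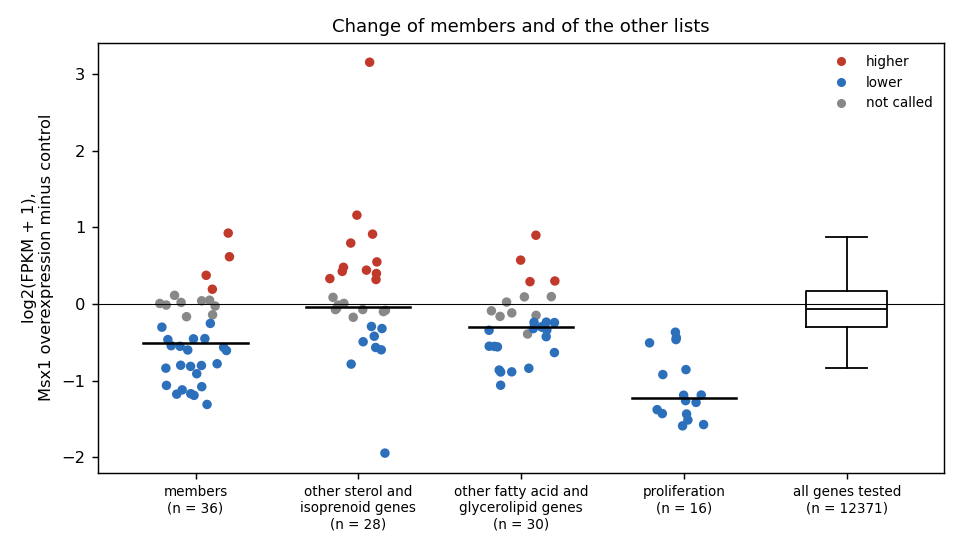
Log2(FPKM + 1) change, Msx1 overexpression minus control, of the members, the other lipid lists and the proliferation genes, 1 point per tested gene with the median as a line, beside a box plot of all genes tested (box, quartiles; whiskers, 5th and 95th percentiles). Medians are -0.50 for the members, -0.04 for other sterol genes, -0.30 for other fatty acid genes and -1.23 for proliferation genes.

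Genes of proliferation moved with the groups too: 16 of 16 fell (100%, against 32.4% of all genes), with a median change of -1.23. Their summed level was 500 to 578 FPKM in control and 267 to 281 FPKM in Msx1 libraries. All 5 tested myotube markers rose (100%, against 22.0% of all genes). Their list summed to 10.7 to 14.2 FPKM in control and 50.6 to 59.6 FPKM in Msx1 libraries, with Myh4 below 0.05 FPKM in each. Among the untested, Ckm averaged lower under Msx1, 0.110 ± 0.0781 against 0.211 ± 0.0744 FPKM in control, with overlapping groups. Of 6 myoblast markers 1 rose (16.7%, against 22.0% of all genes), 2 fell (33.3%, against 32.4%) and 3 were not called. Myod1 was present in every library at 20.7 to 24.2 FPKM. Myf5, a myogenic factor of the same list, fell to 18.2% of control, 9.01 ± 0.396 against 1.64 ± 0.0968 FPKM (n = 3 each; log2 change -1.92, limma adjusted p = 2.77e-07). Of 8 adipocyte markers 3 were tested: 2 fell (66.7%, against 32.4% of all genes), 0 rose (against 22.0%) and 1 was not called. The adipocyte list summed to 21.0 to 24.1 FPKM in control and 17.5 to 17.9 FPKM in Msx1 libraries. Plin1, Cidec and Lep were listed at 0 in every library. The adipocyte markers that fell were Pparg (log2 change -1.22, limma adjusted p = 4.97e-06) and Fabp4 (log2 change -0.98, adjusted p = 4.02e-04). Cebpa was not called (log2 change -0.19, adjusted p = 0.0573). Adipoq and Cfd were listed at 0 in every control library and at 0.27 to 0.82 and 0.51 to 0.86 FPKM in Msx1 libraries, and were not tested. Of 5 macrophage markers 2 were tested, Cd14 and Cd68, and both fell (100%, against 32.4% of all genes). The macrophage list summed to 20.9 to 22.8 FPKM in control and 12.6 to 13.9 FPKM in Msx1 libraries, with Ptprc and Adgre1 listed at 0. Most of that sum was Cd14, at 18.8 ± 1.24 FPKM in control and 11.8 ± 0.838 FPKM under Msx1. The 4 endothelial markers, none tested, summed to 0.22 to 0.27 FPKM in control and 0.52 to 0.88 FPKM in Msx1 libraries. The part of proliferation and of differentiation in the changes of the lipid genes was not tested.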

How the data were processed

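The authors deposited 1 table of FPKM with 38468 RefSeq transcripts and 1 column per library. The tools named per the submitters' processing notes are StringTie, HISAT2 and Trimmomatic, with build GRCm38 (mm10). No version, setting or use of strand is given in the sources used here. StringTie estimates how reads divide among overlapping transcripts, so single transcripts, near-identical copies and antisense partners are uncertain. Vector columns were matched to the control titles by number.

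Symbols came from a RefSeq table (38193 transcripts) and GENCODE (156); 119 had none. FPKM were summed per symbol to 24809 genes. Values as log2(FPKM + 1) were fitted in limma 3.58.1 under R 4.3.3, letting the variance follow the mean level, with Benjamini-Hochberg adjustment. Genes averaging 0.5 FPKM or more (12371) were tested. The step search for depth covered 10 to 40 M fragments. Whole multiples, within 0.1, made up 38.8% to 45.8% of the low values, where an unrelated step would give 20%. The members and lists were chosen with earlier results of these data known. All members were named; in the other lipid lists, up to 3 called genes with the smallest adjusted p in each direction, of which 1 is not reported here. The promoter windows came from RefSeq tables of GRCm38.p6. Alternatives were other pseudocounts, filters, scalings, transcript choice, variance models, a replicate block and leaving out each library.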

Additional observations from a re-analysis of the deposited data

How the results depend on the processing

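Over the 17 alternative settings, 21 to 25 members were called lower and 3 to 6 higher, against 23 and 4 reported. The other sterol list gave 7 to 10 lower and 9 to 12 higher, and the other fatty acid list 14 to 21 lower and 3 to 6 higher. Calls over all genes moved with the settings too, from 4014 lower and 2718 higher of 12371 as reported. Library weights gave 5256 lower and 3514 higher of 12371, with 25 members lower and 4 higher. Totals equalized leaving Msx1 out gave 2807 lower and 3503 higher of 12373, with 21 members lower and 6 higher. Among called members, 24 kept their call and direction in every setting, and no called member changed direction. Uncalled members near 0 changed sign without passing: Acaca at 0.0445 when scaled by medians of ratios and 0.0772 when totals were equalized leaving Msx1 out; Elovl6 at 0.0587 and 0.0919 under the same scalings and 0.0283 with quantile normalization; and Insig1 at -0.0532 and Acss2 at -0.0406 with library weights. With 1 library left out, the change ranged from -0.0265 to 0.0472 for Scap, from -0.0155 to 0.0452 for Srebf2, from -0.0216 to 0.0957 for Acss2 and from -0.116 to 0.0489 for Elovl6. The cause was not tested. Hsd17b7 passed as lower with library weights (adjusted p = 0.0214).

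The replicate numbers are shared by both groups, but deviations of same-numbered libraries correlated at only 0.0553, 0.226 and 0.0366, so they share a number and were not treated as pairs. Each library's highest correlation was not with its own number in every case. With the replicate block, 24 members were called lower and 4 higher, and all genes gave 4055 lower and 2692 higher calls. No interval for single values was drawn from depth, which is known only roughly.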
